A study of Homo sapiens with 8 samples.

Results

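The IL-6 family cytokines and their receptors were described in 2 stable clones made from LN229, a human glioblastoma cell line. The 10 genes were chosen by their symbols in the count table, as a list written with the results of these libraries known, and they are 10 of the 26364 genes counted. They comprise 5 ligands (LIF, IL11, CLCF1, IL6, CTF1), 4 receptor subunits (IL6ST, LIFR, OSMR, IL11RA) and the feedback inhibitor SOCS3. Their own levels in the 4 groups may have led to that choice, so that every value of theirs below is a description. Where one of them is said to pass a threshold, this is its place in the fit over all genes and is not evidence for the family.

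Both clones carried a pcDNA3.1 plasmid with Survivin (BIRC5), an inhibitor of apoptosis, fused to eGFP, and both were selected as resistant to G418. In Surv-GFP (clone D6) the nuclear export sequence (NES) was functional and the fusion protein was mainly cytoplasmic in untreated cells. In SurvNESmut-GFP (clone L2) the NES was mutated, which holds the protein in the nucleus. Each clone was left untreated or was exposed to 50 µM temozolomide (TMZ), a methylating anticancer drug dissolved in DMSO, for 48 h, with 2 libraries per group, lettered a and b. The sources used here do not say whether untreated cells received DMSO. The paper reports that the Surv-GFP protein accumulated in the nucleus after TMZ exposure. Exposed Surv-GFP libraries therefore cannot be read simply as cells with cytoplasmic Survivin. Where the protein lay in the cells sequenced was not tested here. Each construct is represented by 1 clone, so that the NES mutation and other differences between the clones cannot be told apart. The study speaks of biological replicates and of technical duplicates without saying which of these the letters are, and errors and p-values therefore measure only the spread between these libraries.

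The IL-6 cytokines act through the shared signal-transducing subunit gp130, encoded by IL6ST, which pairs with itself or with LIFR or OSMR. IL-6 and IL-11 first bind a receptor of their own, whereas LIF binds LIFR directly. Receptor-bound JAK kinases then phosphorylate STAT3, which enters the nucleus and induces, among others, SOCS3, an inhibitor that binds gp130 and the kinases and shuts the signal off. In glioblastoma this pathway is known for its link to mesenchymal features, stemness and the secretory response of senescent cells.

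The start regions of 3 genes are shown because their highest levels lay in different groups. IL11 was highest in TMZ-exposed Surv-GFP, IL6 was highest in TMZ-exposed SurvNESmut-GFP, and SOCS3 was highest in untreated Surv-GFP. RefSeq promoter entries (GRCh38.p14) were found for 7 of the 10 genes, with 11 entries; LIF, CLCF1 and CTF1 had none in the table used. Each run holds the 250 bases before the annotated start, 5′ to 3′ on the gene's strand, and capitals mark matches to the searched motifs. The IL11 run lies on the minus strand at chr19:55370464-55370713, the IL6 run on the plus strand at chr7:22726950-22727199, and the SOCS3 run, the upstream one of 2 entries, on the minus strand at chr17:78360926-78361175.
IL11: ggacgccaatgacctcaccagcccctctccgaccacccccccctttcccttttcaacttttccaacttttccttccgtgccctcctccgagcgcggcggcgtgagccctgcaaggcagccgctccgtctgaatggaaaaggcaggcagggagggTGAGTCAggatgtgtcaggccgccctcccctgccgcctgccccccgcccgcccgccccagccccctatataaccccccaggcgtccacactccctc
IL6: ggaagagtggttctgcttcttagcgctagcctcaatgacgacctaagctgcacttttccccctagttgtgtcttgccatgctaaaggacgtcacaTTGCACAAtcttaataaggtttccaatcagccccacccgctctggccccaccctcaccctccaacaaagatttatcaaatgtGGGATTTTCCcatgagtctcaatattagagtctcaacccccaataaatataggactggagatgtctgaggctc
SOCS3: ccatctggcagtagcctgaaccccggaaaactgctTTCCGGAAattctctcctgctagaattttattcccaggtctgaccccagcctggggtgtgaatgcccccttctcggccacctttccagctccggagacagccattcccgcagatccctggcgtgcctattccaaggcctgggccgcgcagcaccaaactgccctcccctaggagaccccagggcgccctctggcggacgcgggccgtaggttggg

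Both strands were searched for AP-1 (TGANTCA), STAT (TTCNNNGAA), C/EBP (TTNCNNAA) and the NF-kappaB consensus, and matches of different motifs could overlap. The IL11 run held 1 AP-1 match, 96 to 90 bases before the start, a motif found in 6.57% of 35116 promoter windows of this length. The IL6 run held an NF-kappaB match 73 to 64 bases before the start, found in 9.96% of the windows, and a C/EBP match 155 to 148 bases before it, found in 33.2%. The SOCS3 run held a C/EBP match 215 to 208 bases before the start and no STAT match, which 6.57% of the windows held. The other SOCS3 entry, at chr17:78359668-78359917, held no match of any searched motif. Bases between these SOCS3 windows were not searched. A match describes letters in the window and is not a measured site.

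Between 15826923 and 18861603 counts per library fell on genes, and values are given as CPM, counts scaled to a common library size after TMM normalization. The TMZ-exposed SurvNESmut-GFP libraries stood further apart than other replicates, with a chi-square per gene between a and b of 5.75 against 2.204 to 2.66 in the other groups, and calls that change without either of them are given beside the values. The labelled glioma origin was checked with 8 glioma and astroglial markers, whose summed level, 3869 to 6030 CPM, was mostly that of VIM. Between the untreated clones the mean level of S100B went from 777 CPM in Surv-GFP to 40.6 CPM in SurvNESmut-GFP. In the same order SOX2 went from 90.7 to 34.4 CPM, OLIG2 from 34.0 to 6.94 CPM and VIM from 3738 to 3003 CPM. Means of other markers were higher in untreated SurvNESmut-GFP: nestin went from 735 to 965 CPM, CD44 from 574 to 653 CPM and EGFR from 49.7 to 54.9 CPM. The astrocyte marker GFAP was at most 1 CPM in each library. The 6 leukocyte markers summed to 12.0 to 12.2 CPM in untreated and 17.3 to 19.4 CPM in TMZ-exposed Surv-GFP, and to 15.8 to 16.3 and 19.6 to 21.9 CPM in SurvNESmut-GFP. CD68 made up nearly all of these sums, with group means of 12.05, 18.1, 15.25 and 20.1 CPM, and the other 5 stayed at or below 1 CPM. The 4 endothelial markers summed to 0.535 to 0.975 CPM across the 8 libraries. The part of other cells in the family's levels was not tested, and in bulk RNA fewer cells of a type and less RNA per cell cannot be told apart.

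The ligand LIF, a regulator of self-renewal and differentiation, differed most between the groups in absolute level. LIF stood at 74.5 and 77.2 CPM in untreated Surv-GFP and at 1180 and 1126 CPM upon TMZ. In SurvNESmut-GFP it stood at 577 and 531.5 CPM untreated and at 652 and 726 CPM upon TMZ. The TMZ-exposed libraries lay above the untreated ones in both clones, and untreated SurvNESmut-GFP lay between the untreated and the exposed Surv-GFP libraries. The log2 fold change upon TMZ was 3.93 (SE 0.06, n = 2 per group), or 15.2-fold, in Surv-GFP and 0.31 (SE 0.06), or 1.24-fold, in SurvNESmut-GFP.

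IL11, a gp130 cytokine linked to fibrosis and tumour growth, had the largest fold change of the family upon TMZ in Surv-GFP. Its level was 6.45 and 6.07 CPM in untreated Surv-GFP and 203 and 218 CPM in exposed cells. In SurvNESmut-GFP it was 64.4 and 71.7 CPM untreated and 54.3 and 68.05 CPM upon TMZ. The Surv-GFP groups were far apart, whereas the SurvNESmut-GFP groups overlapped. The log2 fold change was 5.07 (SE 0.14), or 33.6-fold, in Surv-GFP and -0.16 (SE 0.08) in SurvNESmut-GFP. The latter did not pass the threshold, but without SurvNESmut-GFP TMZ replicate b it was -0.32 and passed, and without replicate a it was 0.00. Of all 14201 genes tested, IL11 ranked as number 13 and LIF as number 52 by increase in Surv-GFP.

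CLCF1, which signals through the CNTF receptor complex with gp130 and LIFR, had the same order of groups as LIF at a lower level. The CNTF receptor gene of that complex, CNTFR, had 0 counts in each library. CLCF1 stood at 6.77 and 5.79 CPM in untreated and at 49.7 and 45.8 CPM in TMZ-exposed Surv-GFP. In SurvNESmut-GFP the values were 21.5 and 20.4 CPM untreated and 34.2 and 28.0 CPM upon TMZ. No groups of a clone overlapped. Upon TMZ the log2 fold change reached 2.93 (SE 0.13) in Surv-GFP, against 0.57 (SE 0.10) in the other clone.

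IL6, the founding cytokine of the family, was low in Surv-GFP and highest in TMZ-exposed SurvNESmut-GFP. In Surv-GFP it had 5 and 2 counts untreated and 5 and 12 counts upon TMZ. In SurvNESmut-GFP it had 51 and 40 counts untreated, equal to 2.76 and 2.22 CPM, and 130 and 96 counts upon TMZ, equal to 7.60 and 6.05 CPM. The Surv-GFP groups overlapped and the SurvNESmut-GFP groups did not. The log2 fold change in SurvNESmut-GFP was 1.45 (SE 0.23). In Surv-GFP the ratio of summed counts was 2.46, with an exact 95% interval of 0.969 to 7.01 that covers counting error only. The fitted log2 fold change of 1.27 (SE 0.72) did not pass the threshold there and depended on single libraries. It was 2.03 without untreated replicate a, 0.78 without untreated replicate b, 0.44 without TMZ replicate b, and 1.81 without TMZ replicate a, where it passed. CTF1, encoding cardiotrophin-1, had 0 to 2 counts per library and 5 in all, was not tested, and was not detectable beyond the 3 counts that a count of 0 allows.

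**Figure D1:**
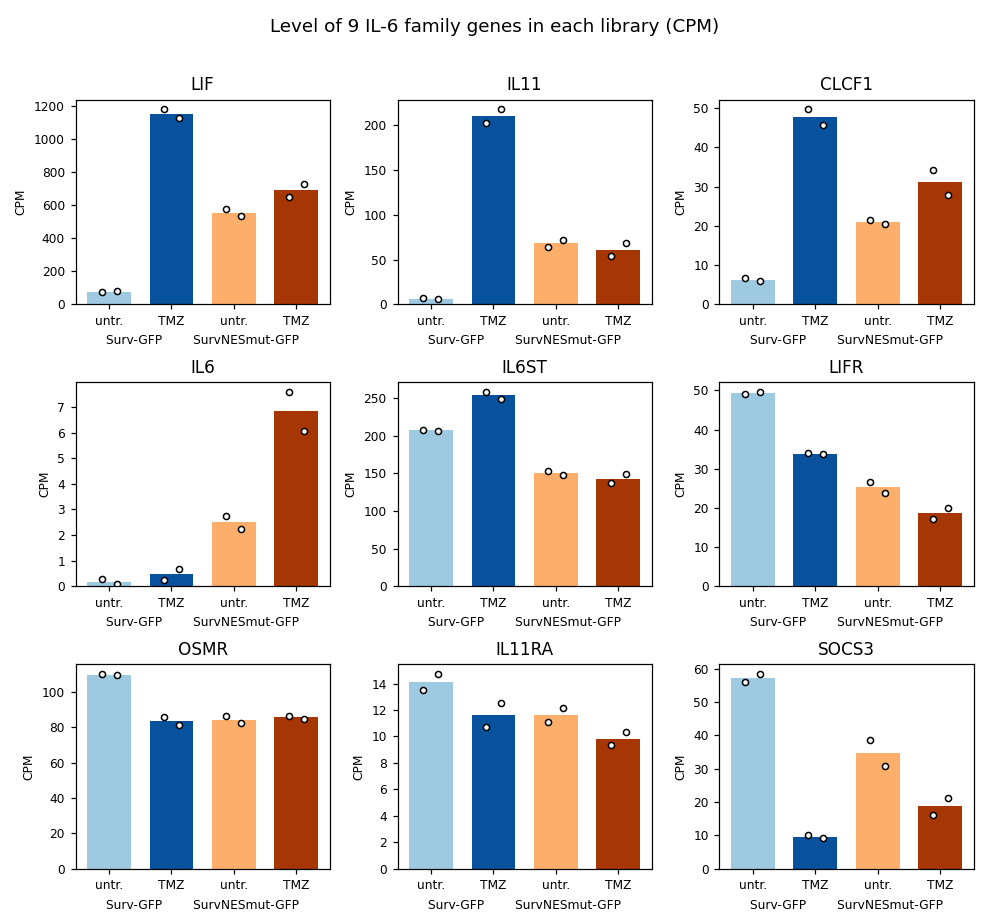
Level of 9 family genes in CPM (linear axes from 0) in the 4 groups; bars are means of the 2 libraries and circles are the single libraries a and b. LIF, IL11 and CLCF1 peaked in TMZ-exposed Surv-GFP, at up to 1180 CPM for LIF, IL6 peaked in TMZ-exposed SurvNESmut-GFP and SOCS3 was highest in untreated Surv-GFP.

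The receptor subunits differed far less between the groups than the ligands. IL6ST, encoding gp130, was at 208 and 207 CPM in untreated Surv-GFP and at 258 and 248.5 CPM upon TMZ, and at 153 and 148 CPM in untreated and 137 and 149 CPM in exposed SurvNESmut-GFP. Groups overlapped in SurvNESmut-GFP but not in Surv-GFP. Its log2 fold change upon TMZ came to 0.29 (SE 0.05) in Surv-GFP, against -0.08 (SE 0.05) in the other clone.

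LIFR, the gp130 partner for LIF and CLCF1, was lower upon TMZ in both clones. Its level was 49.1 and 49.7 CPM in untreated and 34 and 33.8 CPM in exposed Surv-GFP, and 26.7 and 23.9 CPM in untreated and 17.3 and 19.97 CPM in exposed SurvNESmut-GFP. No group overlapped another. The log2 fold changes were -0.54 (SE 0.07) and -0.45 (SE 0.09), in that order of clones.

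OSMR, the partner of gp130 for oncostatin M, stood at 110.2 and 109 CPM in untreated Surv-GFP and at 85.8 and 81.35 CPM upon TMZ. In SurvNESmut-GFP it was 86.3 and 82.4 CPM untreated and 86.3 and 84.9 CPM upon TMZ. Untreated Surv-GFP was the one group that stood above the others. The log2 fold change came to -0.39 (SE 0.05) in Surv-GFP, against 0.02 (SE 0.05) in the other clone.

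IL11RA, the specific receptor for IL-11, had 250 and 267 counts in untreated and 200 and 218 counts in exposed Surv-GFP, and 204 and 219 counts in untreated and 160 and 164 counts in exposed SurvNESmut-GFP. The exposed libraries were lower in CPM within each clone, with log2 fold changes of -0.29 (SE 0.11) and -0.24 (SE 0.12). The Surv-GFP value passed the threshold in edgeR but not in DESeq2, nor without Surv-GFP untreated replicate a (-0.35), untreated replicate b (-0.22) or TMZ replicate a (-0.17).

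SOCS3, the feedback inhibitor, was lower upon TMZ in both clones. It stood at 56.0 and 58.4 CPM in untreated Surv-GFP and at 10.1 and 9.18 CPM upon TMZ. In SurvNESmut-GFP it stood at 38.5 and 30.8 CPM untreated and at 16.2 and 21.2 CPM upon TMZ. No groups overlapped, and the exposed Surv-GFP libraries, which had the highest LIF and IL11 levels, had the lowest SOCS3. The log2 fold change was -2.57 (SE 0.13), or 5.92-fold lower, in Surv-GFP and -0.90 (SE 0.12), or 1.86-fold lower, in SurvNESmut-GFP.

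**Figure D2:**
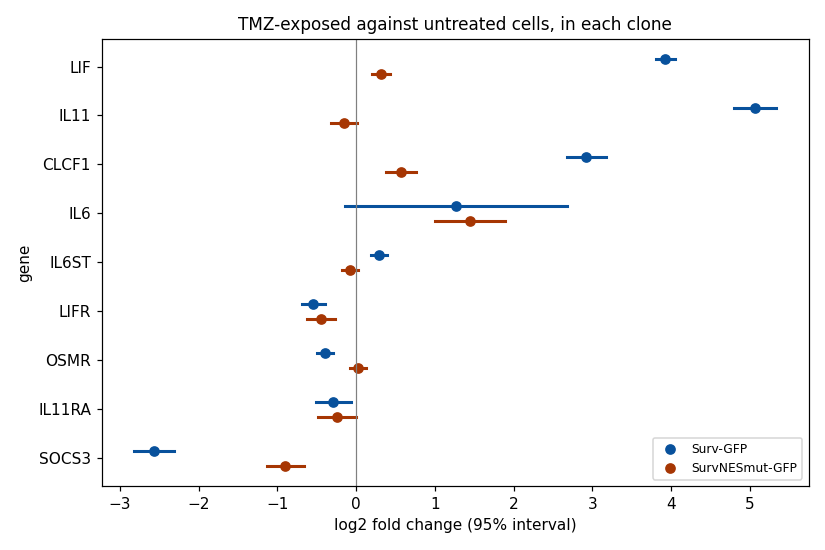
Log2 fold change of each gene upon TMZ (horizontal axis) with its 95% interval, in Surv-GFP (blue) and SurvNESmut-GFP (brown), from edgeR with 2 libraries per group. LIF (3.93), IL11 (5.07) and CLCF1 (2.93) lay far to the right in Surv-GFP only, and SOCS3 lay to the left in both clones.

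Of the 9 genes tested, 4 were higher (LIF, IL11, CLCF1, IL6ST) and 4 lower (LIFR, IL11RA, OSMR, SOCS3) upon TMZ in Surv-GFP at a Benjamini-Hochberg adjusted p of 0.05 over all tested genes. Of all tested genes, 30.1% were higher and 28.9% lower. In SurvNESmut-GFP, 3 were higher (LIF, IL6, CLCF1) and 2 lower (LIFR, SOCS3), beside 18.6% and 19.1% of all genes. Over the 9 genes the median effect of TMZ on the log2 scale was 0.29 in Surv-GFP, against -0.08 in the other clone, beside medians of 0.00 and 0.00 over all genes. Since these values may have led to the choice of the genes, nothing is read from the counts.

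The TMZ effects of the clones were set against each other as a difference, SurvNESmut-GFP minus Surv-GFP. It was -5.23 (SE 0.16) for IL11, -3.61 (SE 0.08) for LIF, -2.36 (SE 0.16) for CLCF1 and -0.37 (SE 0.07) for IL6ST, which means a smaller increase or none in SurvNESmut-GFP. It was 1.67 (SE 0.18) for SOCS3 and 0.41 (SE 0.07) for OSMR, whose decrease was smaller or absent there. For IL6 it was 0.18 (SE 0.76), for LIFR 0.10 (SE 0.12) and for IL11RA 0.05 (SE 0.17). Past the threshold were 2 genes on the higher side and 4 on the lower side, beside 16.6% and 20.2% of all genes, and again nothing is read from these counts.

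Without TMZ, the ligands LIF, IL11, CLCF1 and IL6 were higher in SurvNESmut-GFP than in Surv-GFP and the 4 receptors were lower. The log2 difference was 3.44 (SE 0.14) for IL11, 2.87 (SE 0.06) for LIF and 1.74 (SE 0.13) for CLCF1. For IL6 the summed counts were 91 against 7, a ratio of 13.1 with an exact 95% interval of 6.08 to 33.4. The difference was -0.96 (SE 0.08) for LIFR, -0.46 (SE 0.05) for IL6ST, -0.38 (SE 0.05) for OSMR, -0.28 (SE 0.11) for IL11RA and -0.72 (SE 0.10) for SOCS3. The IL11RA call was lost with DESeq2 and on leaving out any 1 of the 4 untreated libraries, at -0.35 to -0.21. The 9 genes split into 4 higher and 5 lower, beside 34.7% and 29.4% of all genes, and nothing is read from this split. IL6, among the 4, reached 10 counts in 5 libraries, the 4 of SurvNESmut-GFP and Surv-GFP TMZ replicate b, so that it passed the filter on low counts through the clone where it is high.

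Among TMZ-exposed cells the order of the clones was the opposite for LIF, IL11, CLCF1 and SOCS3. The difference, SurvNESmut-GFP minus Surv-GFP, was -1.79 (SE 0.08) for IL11, -0.74 (SE 0.06) for LIF and -0.62 (SE 0.09) for CLCF1, and 0.95 (SE 0.14) for SOCS3. IL6 stayed higher in SurvNESmut-GFP, with 226 against 17 summed counts and a ratio of 14.6 (exact 95% interval 8.90 to 25.4). IL6ST was at -0.83 (SE 0.05), LIFR at -0.87 (SE 0.09) and OSMR at 0.03 (SE 0.05). IL11RA, at -0.24 (SE 0.12), did not pass but did so without Surv-GFP TMZ replicate a (-0.38) or SurvNESmut-GFP TMZ replicate b (-0.34). Past the threshold were 2 higher and 5 lower genes, beside 34.5% and 34.7% of all genes. These comparisons share libraries with the TMZ effects above and are no independent evidence.

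**Figure D3:**
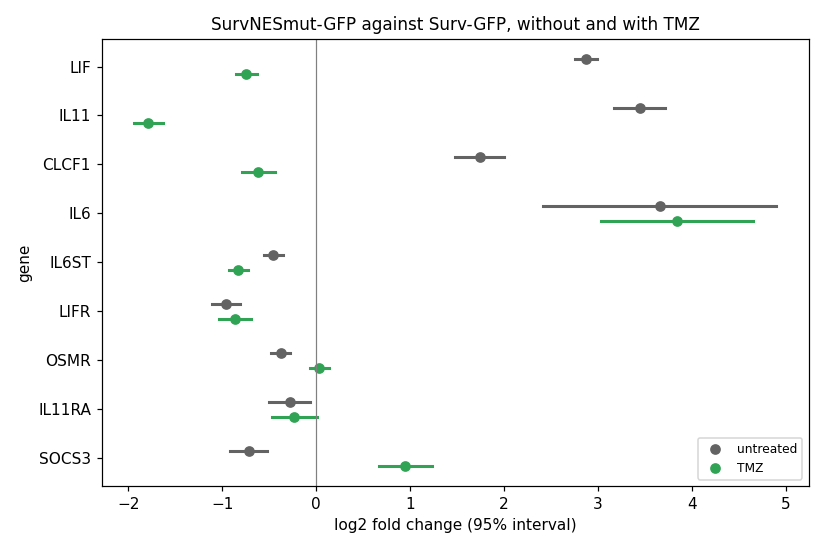
Log2 difference between the clones, SurvNESmut-GFP minus Surv-GFP (horizontal axis), with its 95% interval, in untreated (grey) and TMZ-exposed cells (green), 2 libraries per group. LIF, IL11 and CLCF1 lay right of 0 untreated and left of 0 upon TMZ, and IL6 lay right of 0 in both.

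Between genes, levels were compared as CPM per kb of annotated exon length. LIF was the most abundant ligand in each library, with 71.1% to 79.8% of the summed ligand level. That sum was 25.1 CPM per kb in both untreated Surv-GFP libraries, 408 and 399 upon TMZ, 185 and 176 in untreated SurvNESmut-GFP, and 209 and 229 upon TMZ. IL11 held 10.2% to 10.8% of it in untreated and 21.0% to 23.0% in exposed Surv-GFP. IL6 held at most 2.12%, reached in SurvNESmut-GFP TMZ replicate a. Among the chosen receptor subunits IL6ST had the highest level per kb in each group, followed by OSMR.

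In untreated Surv-GFP the highest level per kb was that of IL6ST (22.8 ± 0.0935 CPM per kb, SD, n = 2), followed by SOCS3 (20.9 ± 0.639), LIF (19.1 ± 0.481) and OSMR (17.9 ± 0.104). Their library ranges did not overlap. In TMZ-exposed Surv-GFP, LIF (290.5 ± 9.62) and IL11 (88.8 ± 4.47) lay above IL6ST (27.9 ± 0.763). SOCS3 (3.53 ± 0.238), IL11RA (3.47 ± 0.385) and LIFR (3.26 ± 0.0143) overlapped as neighbours there. In untreated SurvNESmut-GFP, OSMR (13.7 ± 0.451) and SOCS3 (12.7 ± 2.00) overlapped, and in exposed SurvNESmut-GFP CLCF1 (15.7 ± 2.22) and IL6ST (15.7 ± 0.927) did. Among the chosen receptor subunits, LIFR was the lowest per kb in the groups other than untreated Surv-GFP, where IL11RA was. Receptors outside the chosen genes were not compared per kb.

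**Figure D4:**
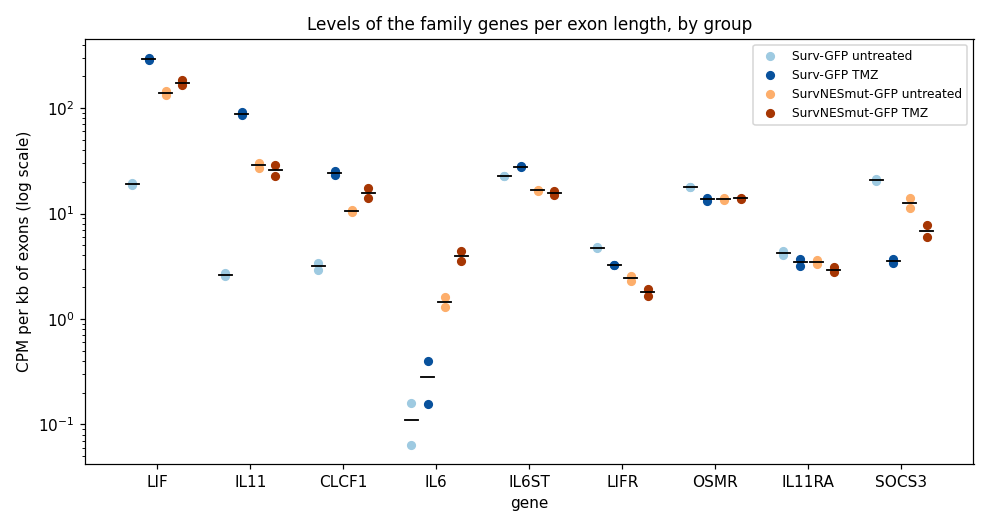
Level in CPM per kb of exons (log axis) of 9 family genes; points are single libraries coloured by group and lines are group means. LIF was the top gene in 3 of 4 groups, and IL6ST was the top gene in untreated Surv-GFP.

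The rest of the pathway was read from 4 lists, written from general knowledge with results of these data known. The first held 10 other ligands and receptors of the family, of which 5 passed the filter on low counts. OSM, CNTF, IL27, IL31 and CNTFR were too low to test. Upon TMZ in Surv-GFP 2 were higher and 1 lower, beside 30.1% and 28.9% of all genes, with a median log2 fold change of 0.25. IL31RA, a receptor subunit related to gp130, rose by 1.70 (SE 0.16, adjusted p = 1.01e-07), from 73 and 72 to 262 and 203 counts. In SurvNESmut-GFP it rose by 0.68 (SE 0.16, adjusted p = 0.00352), a call lost without SurvNESmut-GFP TMZ replicate a (0.47, adjusted p = 0.0619). The difference between the clones was -1.02 (SE 0.23, adjusted p = 0.00253).

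IL6R, the receptor that binds IL-6, fell in SurvNESmut-GFP alone of the clones by the threshold, and the difference was tested. It had 317 and 287 counts untreated and 182 and 159 upon TMZ there (-0.68, SE 0.13, adjusted p = 0.000626), and the difference from the effect in Surv-GFP was -0.78 (SE 0.17, adjusted p = 0.00205). EBI3, a subunit shared by IL-27 and IL-35, had 5 counts in untreated and 21 in exposed Surv-GFP, a ratio of 4.25 (exact 95% interval 1.56 to 14.4). In SurvNESmut-GFP it had 1 and 15 counts, a ratio of 16.6 (2.55 to 698). EBI3 reached 10 counts only in exposed libraries, so that it passed the filter on low counts through the groups where it is high. Its calls, counted among the 2 higher genes of the list in each clone, are therefore descriptions. Its adjusted p of 0.0128 in Surv-GFP rose to 0.086 without untreated replicate b, 0.0595 without TMZ replicate a and 0.0513 without TMZ replicate b. In SurvNESmut-GFP it went from 0.00588 to 0.0726 without untreated replicate b and 0.108 without TMZ replicate a, and with DESeq2 the Surv-GFP call was lost. IL27RA was at -0.56 (SE 0.15, adjusted p = 0.00511) in Surv-GFP, a call lost without untreated replicate b (-0.45) or TMZ replicate a (-0.34). Of the list, 2 were higher and 1 lower in SurvNESmut-GFP, beside 18.6% and 19.1% of all genes, with a median of -0.26.

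Of 15 kinases, STATs and adaptors, 14 were tested. In Surv-GFP 3 were higher and 6 lower upon TMZ, and in SurvNESmut-GFP 0 were higher and 2 lower, with medians of -0.09 and -0.03. Over all genes 30.1% were higher and 28.9% lower in the first clone, and 18.6% and 19.1% in the second. The 0 was 1 with library size alone or without SurvNESmut-GFP TMZ replicate b. STAT5A, a cytokine-activated transcription factor, had 145 and 116 counts in untreated and 59 and 60 in exposed Surv-GFP. It fell by 1.11 (SE 0.18, adjusted p = 3.99e-05) there, and the difference between the clones was 1.07 (SE 0.23, adjusted p = 0.0016). GAB1, an adaptor downstream of gp130, fell by 0.77 (SE 0.09, adjusted p = 1.24e-06) in Surv-GFP and by 0.55 (SE 0.10, adjusted p = 0.00026) in SurvNESmut-GFP. STAT6, the transcription factor of IL-4 signalling, fell by 0.44 (SE 0.05, adjusted p = 1.77e-06) and 0.53 (SE 0.07, adjusted p = 1.08e-05). The kinases JAK1, JAK2 and TYK2 did not pass in either clone, at -0.03, 0.05 and 0.02 in Surv-GFP and -0.11, 0.03 and 0.05 in SurvNESmut-GFP. STAT3 was at -0.16 (SE 0.05, adjusted p = 0.0119) in Surv-GFP and at -0.03 (SE 0.05) in SurvNESmut-GFP. The values of these kinases and of STAT3 were added after they were seen.

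Higher in Surv-GFP were PTPN11, the phosphatase SHP2 recruited by gp130 (0.31, SE 0.05, adjusted p = 3.86e-05), and the adaptor GRB2 (0.24, SE 0.05, adjusted p = 0.000819). The adaptor SHC1 was at 0.15 (adjusted p = 0.0179), lost without Surv-GFP untreated replicate b (0.12) or TMZ replicate b (0.09), and the kinase JAK3 at -0.61 (adjusted p = 0.00726), lost without untreated replicate a (-0.41) or TMZ replicate b (-0.50). The first was also lost with a filter of 1 CPM in 2 libraries (adjusted p = 0.0772), the second with DESeq2 (adjusted p = 0.071). For the difference between the clones, 3 were past the threshold in each direction, beside 16.6% of all genes higher and 20.2% lower. STAT5A was the one of these 6 that kept its call in each alternative. The calls of STAT5B, STAT2 and PTPN11 were lost without Surv-GFP untreated replicate a, among other libraries, at adjusted p of 0.273, 0.133 and 0.159, and those of GRB2 and SHC1 without Surv-GFP TMZ replicate b at 0.236 and 0.0739.

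Of 15 negative regulators, 14 were tested. Upon TMZ 7 were higher and 3 lower in Surv-GFP, with a median of 0.22, and 1 was higher and 5 lower in SurvNESmut-GFP, with a median of -0.09. Shares over all genes were 30.1% and 28.9% in Surv-GFP, and 18.6% and 19.1% in SurvNESmut-GFP. SOCS2, an inhibitor of the SOCS3 family known for damping growth hormone signals, moved in opposite directions. It had 16.9 and 15.3 CPM in untreated and 27.5 and 25.8 CPM in exposed Surv-GFP, and 86.5 and 81.6 CPM in untreated and 44.7 and 55.4 CPM in exposed SurvNESmut-GFP. It rose by 0.73 (SE 0.11, adjusted p = 1.79e-05) in the first and fell by 0.75 (SE 0.08, adjusted p = 1.89e-06) in the second, a difference of -1.48 (SE 0.13, adjusted p = 3.46e-07). PTPRE, a receptor-type phosphatase, rose by 1.07 (SE 0.09, adjusted p = 4.18e-08) in Surv-GFP. It stood at 0.37 (adjusted p = 0.00798) in SurvNESmut-GFP, a call lost without untreated replicate b (0.29) and with DESeq2 (adjusted p = 0.0553), and the difference was -0.70 (SE 0.14, adjusted p = 0.000753).

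Also higher in Surv-GFP were PIAS4 by 0.35 (adjusted p = 0.00129) and SOCS4 by 0.30 (adjusted p = 0.000183). PIAS1 and PIAS2, SUMO ligases that restrain STATs, fell in both clones, by 0.62 and 0.51 in Surv-GFP and by 0.35 and 0.33 in SurvNESmut-GFP, with adjusted p of 5.79e-06, 7.83e-06, 0.0023 and 0.00153. SOCS6 fell by 0.33 (adjusted p = 0.00231) in SurvNESmut-GFP. CISH had 20 counts in untreated and 7 in exposed Surv-GFP (adjusted p = 0.0345), a call lost without untreated replicate a (0.204), TMZ replicate a (0.176) or TMZ replicate b (0.0685) and with DESeq2 (0.107), all as adjusted p. In the difference between the clones 0 were higher and 5 lower, beside 16.6% and 20.2% of all genes. SOCS5 (-0.47, adjusted p = 0.00854) lost its call without Surv-GFP TMZ replicate b (-0.35). Without that library 1 was higher and 3 lower.

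Of 25 genes known as targets of STAT3, 19 were tested. Upon TMZ 7 were higher and 7 lower in Surv-GFP and 6 higher and 7 lower in SurvNESmut-GFP, with medians of 0.11 and -0.16. These counts stand beside 30.1% and 28.9% of all genes in Surv-GFP, and 18.6% and 19.1% in SurvNESmut-GFP. VEGFA, an angiogenic factor, rose in both clones, from 19.2 and 18.98 to 217 and 209 CPM in Surv-GFP and from 50.8 and 48.7 to 168 and 153 CPM in SurvNESmut-GFP. Its log2 fold changes were 3.48 (SE 0.07, adjusted p = 3.38e-16) and 1.69 (SE 0.06, adjusted p = 3.1e-12), with a difference of -1.79 (SE 0.09, adjusted p = 3.84e-10). TNFAIP3, the NF-kappaB inhibitor A20, rose by 1.54 (SE 0.11, adjusted p = 3.68e-09) in Surv-GFP, and the difference was -1.49 (SE 0.15, adjusted p = 8.59e-07). The transcription factor CEBPB and the cyclin CCND1 rose by 0.84 (adjusted p = 2.89e-08) and 0.62 (adjusted p = 4.81e-08) in Surv-GFP. They were also higher in SurvNESmut-GFP, by 0.35 (adjusted p = 0.000957) and 0.23 (adjusted p = 0.00231), the latter lost without SurvNESmut-GFP untreated replicate a (0.17).

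In SurvNESmut-GFP the survival factor BCL2L1 rose by 0.73 (adjusted p = 3.82e-07), IRF1, a transcription factor of interferon responses, by 0.59 (adjusted p = 2.46e-05) and the receptor IL4R by 0.75 (adjusted p = 0.00412, 0.113 with DESeq2). IL4R had 64 and 63 counts untreated and 108 and 85 upon TMZ there, and 3 counts in all in Surv-GFP. BCL2L1 also rose in Surv-GFP, by 0.43 (adjusted p = 0.000153). HIF1A, the hypoxia factor, fell by 0.69 (adjusted p = 7.74e-08) in SurvNESmut-GFP and rose by 0.58 (adjusted p = 1.67e-07) in Surv-GFP, a difference of -1.27 (SE 0.08, adjusted p = 5.48e-09). The repressor BCL6 fell by 0.61 (adjusted p = 2.35e-05) in SurvNESmut-GFP and was at -0.26 (adjusted p = 0.0104) in Surv-GFP, a call lost without Surv-GFP untreated replicate a (-0.23) or TMZ replicate a (-0.18). For CEBPB, CCND1, BCL2L1, HIF1A and BCL6 the values of the clone given second, and the difference in HIF1A, were added after their values were seen. CEBPD, a partner of CEBPB in acute-phase responses, fell by 1.12 (adjusted p = 0.000121) in Surv-GFP and 1.17 (adjusted p = 0.000219) in SurvNESmut-GFP.

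The immediate-early gene FOS fell by 1.92 (SE 0.28, adjusted p = 1.98e-05) and the acute-phase gene SERPINA3 by 1.08 (SE 0.13, adjusted p = 3.24e-06) in Surv-GFP. FOS was uneven between libraries there, at 395 ± 165 CPM (SD) untreated and 105 ± 45.5 CPM upon TMZ. Its fold change ranged from -2.48 to -1.41 over the alternatives. The differences between the clones were 1.72 (adjusted p = 0.00368) for FOS and 0.90 (adjusted p = 0.00334) for SERPINA3. Both were lost with DESeq2, at adjusted p of 0.0819 and 0.077. The protease inhibitor A2M was also uneven between libraries, with 1408 and 2381 counts in exposed Surv-GFP and 642 and 2114 in exposed SurvNESmut-GFP. It fell by 2.67 (SE 0.34, adjusted p = 1.53e-05) in SurvNESmut-GFP and was at -1.25 (adjusted p = 0.0043) in Surv-GFP, a call lost without Surv-GFP TMZ replicate a (-0.88) and with DESeq2 (adjusted p = 0.11). Its difference of -1.41 (adjusted p = 0.0281) was lost without Surv-GFP untreated replicate b, Surv-GFP TMZ replicate b or either untreated SurvNESmut-GFP library, at -1.52 to -0.89, and with DESeq2 (adjusted p = 0.282). The difference in IRF1, 0.42 (adjusted p = 0.0153), was lost without Surv-GFP untreated replicate a (0.39), TMZ replicate b (0.33) or SurvNESmut-GFP untreated replicate b (0.40). Of the list, 5 had a higher and 9 a lower effect in SurvNESmut-GFP, beside 16.6% and 20.2% of all genes. The count of 5 was smaller without Surv-GFP untreated replicate a or Surv-GFP TMZ replicate b.

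**Figure D5:**
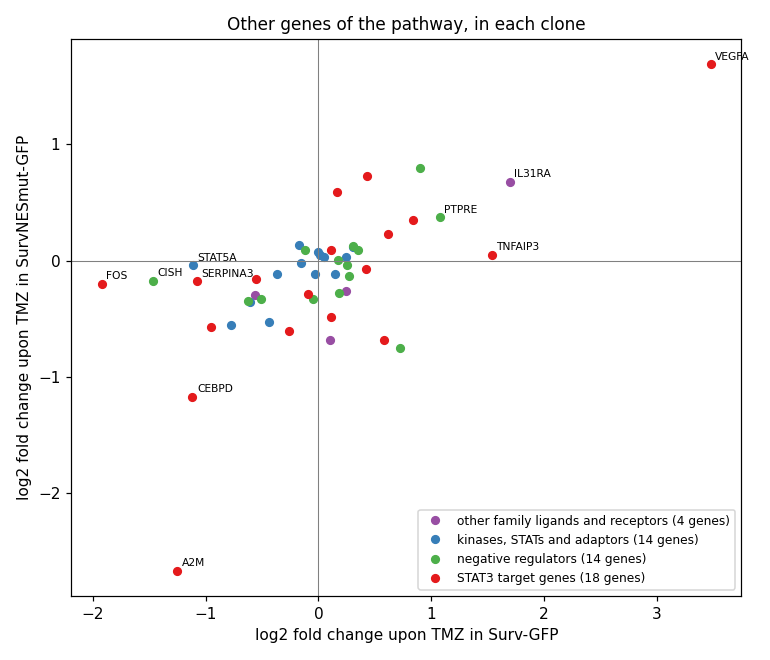
Log2 fold change upon TMZ in Surv-GFP (horizontal axis) and SurvNESmut-GFP (vertical axis) of the genes of the 4 lists, coloured by list; each point is a gene, and genes beyond 1 in either clone are named. EBI3 and IL4R, with 3 counts or fewer in a group, are not drawn. VEGFA (3.48 and 1.69) lay at the upper right and A2M (-1.25 and -2.67) at the lower left.

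The genes most like LIF, IL11 and IL6 in profile over the 8 libraries were ranked by the root mean square difference of log2 CPM profiles centred on their mean, over 14192 genes. For LIF they were RGS8 (0.30), GPR158 (0.34) and DUSP10 (0.35), for IL11 IL24 (0.29), CXCL8 (0.40) and GPR158 (0.45), and for IL6 SEL1L3 (0.36), TNIP3 (0.41) and COL7A1 (0.43). The 8 libraries come from 4 groups, so these profiles hold few independent points. RGS8 had 1 count in each untreated Surv-GFP library, IL24 had 0 in each, and TNIP3 had 1 to 3 counts in the Surv-GFP libraries, so that their ranks rest on levels near the floor.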

How the data were processed

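RNA of the 8 libraries was sequenced on Illumina instruments, and groups and letters were taken from the sample labels. The authors deposited raw counts, as whole numbers and not normalized, in a table of 26364 gene symbols. Another 2 rows, set aside here, held reads on no gene (11.2% to 14.3% of all counts) and on several genes (1.19% to 1.28%). The submitters' processing notes name STAR 2.5.0b, Cufflinks 2.2.1 and edgeR. The sources used here give neither build, annotation and counting settings nor strandedness. In the reference annotation, exons of LIF, IL6 and IL6ST overlap antisense genes, and those of IL11RA and CLCF1 overlap neighbours on the same strand. Reads there could be set aside as falling on several genes or counted to a neighbour, which the sources do not tell. Also deposited were 5 comparison tables with edgeR's fold changes on a log2 scale, mean log2 CPM, F statistics, p-values and FDR, which were not used.

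The 10 genes and the lists were chosen with earlier results of these data known. With edgeR 4.0.16 under R 4.3.3 and limma 3.58.1, counts were fitted as 4 group means over 8 libraries, with TMM, the filter on low counts by group (9 of the 10 genes and 14201 genes in all passed) and the legacy quasi-likelihood F test. Adjusted p-values are Benjamini-Hochberg values over the tested genes, with a threshold of 0.05. The 95% intervals are from a normal approximation to the SE. A count of 0 allows up to 3 counts, and such limits and count intervals reflect counting error alone, because the table has no molecular identifiers. Replicates were no copies of one library: chi-square per gene was 2.20 to 2.66, and 5.75 in TMZ-exposed SurvNESmut-GFP. Listed genes named are at most 4 past the threshold per direction and TMZ effect, and at most 3 for the difference, by size. Exceptions are the values said to be added after they were seen. Lengths are unions of exons in the GENCODE annotation given. Alternatives were other scalings, filters and tests (DESeq2 1.42.0), the letter as a block and each library left out. The fit was tested on simulated data. Some measured items are not reported here.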

Additional observations from a re-analysis of the deposited data

Results flagged for a closer look

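The interaction term of edgeR (SurvNESmut-GFP minus Surv-GFP, log2) passed the threshold for the genes below. For the family genes themselves the values were -3.61 for LIF, -5.23 for IL11, -2.36 for CLCF1, -0.37 for IL6ST, 0.41 for OSMR and 1.67 for SOCS3, and they are descriptions, since these genes were chosen with the results known. Among the other family genes they were -1.02 for IL31RA and -0.78 for IL6R. Among kinases, STATs and adaptors they were 1.07 for STAT5A, 0.30 for STAT5B, 0.25 for STAT2, -0.26 for SHC1, -0.21 for GRB2 and -0.19 for PTPN11. Among negative regulators they were -1.48 for SOCS2, -0.70 for PTPRE and -0.47 for SOCS5. Among STAT3 targets they were 1.72 for FOS, 0.90 for SERPINA3, 0.42 for IRF1, -1.79 for VEGFA, -1.49 for TNFAIP3, -1.41 for A2M and -1.27 for HIF1A. Of the 15 alternatives run for each, the call was lost in 11 for PTPN11, 9 for GRB2, 6 each for STAT5B and STAT2, 5 for A2M, 3 for IRF1, and 1 each for SHC1, SOCS5, FOS and SERPINA3.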

How the results depend on the processing

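The counts of family genes past the threshold stayed within 1.5 times of those given under each alternative run. With DESeq2 or a filter of 1 CPM in 2 libraries, the other ligands and receptors higher upon TMZ numbered 1 in Surv-GFP and 1 in SurvNESmut-GFP. EBI3 was at most 0.643 CPM in any library and so did not pass the filter of 1 CPM. In the difference between the clones, kinases, STATs and adaptors on the lower side numbered 1 with library size alone, no filter, 1 CPM in 2 libraries or DESeq2, and on the higher side 1 with DESeq2. With library size alone 1 of them was higher upon TMZ in SurvNESmut-GFP. Negative regulators higher in SurvNESmut-GFP numbered 2 with library size alone and 0 with DESeq2, and in the difference 1 with library size alone or 1 CPM in 2 libraries. STAT3 targets with a higher difference numbered 2 with DESeq2. Calls over all genes moved too. Upon TMZ in SurvNESmut-GFP, 2648 of 14201 genes were higher and 2719 lower. These were 1783 and 1997 of 13830 with DESeq2, and 3123 and 2238 of 14201 with library size alone. In the difference, 2355 were higher and 2871 lower, against 1655 and 2062 of 13073 with DESeq2. Nothing is read from the list counts here or with a library left out. Beyond the filtering of EBI3, the cause was not tested.

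With each library left out in turn, the other ligands and receptors numbered 1 to 2 higher and 0 to 1 lower in Surv-GFP, and 0 to 2 higher in SurvNESmut-GFP. Kinases, STATs and adaptors numbered 0 to 1 higher in SurvNESmut-GFP, and 1 to 3 higher and 0 to 3 lower in the difference. Negative regulators numbered 0 to 1 higher in SurvNESmut-GFP, and 0 to 1 higher and 3 to 6 lower in the difference, and STAT3 targets 3 to 5 higher. Values that changed sign were not past the threshold with all libraries: IL11 in SurvNESmut-GFP ranged from -0.32, which passed, to 0.002, OSMR there from -0.014 to 0.053, the differences of IL6 from -0.58 to 1.01, of LIFR from -0.006 to 0.20 and of IL11RA from -0.063 to 0.19, and OSMR between exposed clones from -0.016 to 0.038.

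No shared shift between the letters was seen: a minus b deviations correlated at -0.067 to 0.083 between groups. Counting error also lowers such correlations, so they cannot tell whether the letters paired the libraries. With the replicate block, 4 family genes were higher and 4 lower upon TMZ in Surv-GFP, beside 4186 and 4017 of all 14201 genes tested. PTPN11 (-0.19 in the difference) had an adjusted p of 0.0589 with the block. At this depth CTF1 could not be tested, and IL6 in Surv-GFP rests on 24 counts.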
